A study of Mus musculus with 6 samples.

Results

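The septins are a family of GTP-binding cytoskeletal proteins, and the 10 family members described here, Sept2 to Sept11, were taken by gene symbol from the 24421 genes of the count files. RNA was sequenced from the Purkinje neuron layer of the cerebellum, microdissected together with the molecular layer, from mice of 1 year: 3 labelled wild type (WT) and 3 labelled STIM1 knockout (KO). The labels give no strain, no allele and no Cre driver, so the cells in which STIM1 is missing are not stated. The dissected layers hold Purkinje cells, Bergmann glia and molecular layer interneurons, and in such tissue fewer cells of a type and less RNA per cell cannot be told apart. The question put to the family was whether any paralogue differs between the genotypes.

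Septins assemble end to end into rods and filaments in which members of the SEPT2, SEPT6, SEPT7 and SEPT3 groups take fixed places, and members of one group can often stand in for each other. In neurons and glia these filaments line the plasma membrane at dendritic branch points, spine necks, axon terminals and glial processes. STIM1 senses calcium in the endoplasmic reticulum and gates Orai channels when the store runs low, and septin 7 is known as a restraint on that store-operated calcium entry in neurons. Of the members, Sept2, Sept4 and Sept5 form the SEPT2 group, Sept3 and Sept9 the SEPT3 group, Sept6, Sept8, Sept10 and Sept11 the SEPT6 group, and Sept7 stands alone in its group.

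Because the paralogues are alike in sequence and the reads were 50 bases long, the coding sequences were first compared, using GENCODE release M21 on GRCm38. A feature of the family is the P-loop, which holds the phosphates of GTP. The stretches below, 1 from each group, show it 5′ to 3′ in the sense of the gene, with the codons of the loop in capitals. They show how far the bases of members differ at this site. An exon junction followed base 19 of the stretch in all 10 members, so each stretch spans an intron in the genome: chr9:25265478-25277575 on the plus strand for Sept7, chr11:87583996-87584430 on the plus strand for Sept4, chr15:82279588-82283090 on the plus strand for Sept3 and chr11:53532098-53534464 on the plus strand for Sept8.
Sept7: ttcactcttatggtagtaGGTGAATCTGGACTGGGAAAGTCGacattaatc
Sept4: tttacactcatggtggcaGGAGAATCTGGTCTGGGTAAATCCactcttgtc
Sept3: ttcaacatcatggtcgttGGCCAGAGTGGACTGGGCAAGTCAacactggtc
Sept8: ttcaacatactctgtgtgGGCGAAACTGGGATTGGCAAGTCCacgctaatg
Within the 24 bases of the loop Sept4 had 5 mismatches to Sept7, and Sept3 and Sept8 had 7 each. Among all members the number ran from 4 in Sept2 to 10 in Sept9.

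Over the whole coding sequences, 0 of 45 pairs of members shared an exact run of 50 bases or more, and the median longest run was 14 bases. The longest 2 are shown because they are where coding sequences of members are most alike. Sept4 (chr11:87588773-87588813, plus strand) and Sept5 (chr16:18624622-18624662, minus strand) shared 41 bases, and Sept3 (chr15:82284460-82284492, plus strand) and Sept9 (chr11:117353176-117353208, plus strand) shared 33, here all in lower case.
Sept4 and Sept5: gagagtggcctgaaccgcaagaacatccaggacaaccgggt
Sept3 and Sept9: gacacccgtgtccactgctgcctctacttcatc
A read that lies wholly in coding sequence and matches exactly could therefore be told between members. Of the 50-base windows in each member's annotated transcripts, at most 0.699% (Sept2) were shared with a gene on the same strand, except in Sept5. Over whole transcripts, untranslated parts included, Sept7 and Sept2 shared windows with each other and with other genes, 0.490% of the Sept7 windows being shared with any gene. In Sept5, 80.4% of the windows were shared with Gp1bb, a platelet glycoprotein gene that lies at its end, or with the overlapping model Gm49601.

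The libraries were shallow in genes, which sets the precision of all that follows. They held 645994 to 764839 counts in genes, 1.16% to 1.23% of the uniquely aligned reads, and the 10 septins together took 230 to 309 counts per library. CPM below are counts relative to the TMM-scaled library size. All 12 Purkinje cell markers and all 12 of Bergmann glia and astrocytes had counts, but so did every marker of the other lists. Over libraries the Purkinje cell list summed to 2380 to 4035 CPM and the Bergmann glia and astrocyte list to 1071 to 1743. Interneuron markers summed to 231 to 295 CPM, granule cell markers to 199 to 273 and oligodendrocyte markers to 127 to 176. The microglial and endothelial lists summed to at most 51.0 and 22.9 CPM. For Stim1 the WT libraries gave 7, 21 and 3 reads and the KO libraries 4, 3 and 2, with overlap at the low end and too few to check the genotype. Y-linked genes had counts in 1 library of each genotype, replicate 3 in both. The strand that was counted is not given in the sources used here. Genes whose exons overlap those of an opposite-strand gene by 50 bases or more held 74.4% of gene counts but 28.2% of exon bases. Of the septins, 8 of 10 have no such overlap. The part of the counted strand in the septin values was not tested, so they are given as counts assigned to septin genes.

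Members differed far more from each other than the genotypes did. Levels of different genes were compared as CPM per kilobase of annotated exon. Sept4, a member abundant in Bergmann glia, was highest, with a WT level of 23.3 ± 4.47 CPM per kilobase and a KO level of 17.3 ± 4.39 (SD, n = 3 each). Sept3, a neuronal member, had 12.1 ± 2.36 in WT and 11.1 ± 2.94 in KO, and Sept7 12.3 ± 0.263 in WT and 9.91 ± 0.611 in KO. Sept4 exceeded Sept3 in 6 of 6 libraries, although their ranges over libraries overlapped, while Sept3 exceeded Sept7 in 4 of 6, so the order of that pair was not settled.

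Sept5, Sept8 and Sept11 followed. Sept5, which is concentrated at presynaptic terminals and binds syntaxin, averaged 8.09 CPM per kilobase over the 6 libraries, and Sept8, a member linked to synaptic vesicles, 6.62. For Sept5 the level depends on the length taken: 3277 of its 3915 exon bases are shared with Gp1bb and Gm49601 on the same strand, 1902 of them with Gp1bb. If reads in the bases shared with Gp1bb were set aside as ambiguous, the level over the other 2013 bases would be 15.7 CPM per kilobase. Gm49601 is not among the genes of the count files, so bases shared with it alone were kept in that length. Its place in the order is therefore uncertain. Between Sept8 (4.90 to 9.44 CPM per kilobase over libraries) and Sept11 (1.27 to 3.99) the ranges did not overlap, and these neighbours mark the step from the well detected to the weakly detected members.

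The weakly detected members were Sept11, Sept2, Sept6, Sept10 and Sept9. Sept11, described at inhibitory synapses and dendrites, averaged 2.72 CPM per kilobase. Sept2, a widely expressed member known from cell division, averaged 1.56, the X-linked Sept6 1.39 and Sept10 1.26, and the ranges of each neighbouring pair in this order overlapped. Sept9, which in other tissues caps or extends septin rods, was lowest at 0.0949, below Sept10 in 6 of 6 libraries. The family genes outside the rule, Sept1, Sept12 and Sept14, had 0 counts in every library, which allows up to 3.81 to 4.75 CPM each (3 counts of a library, counting error only).

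**Figure D1:**
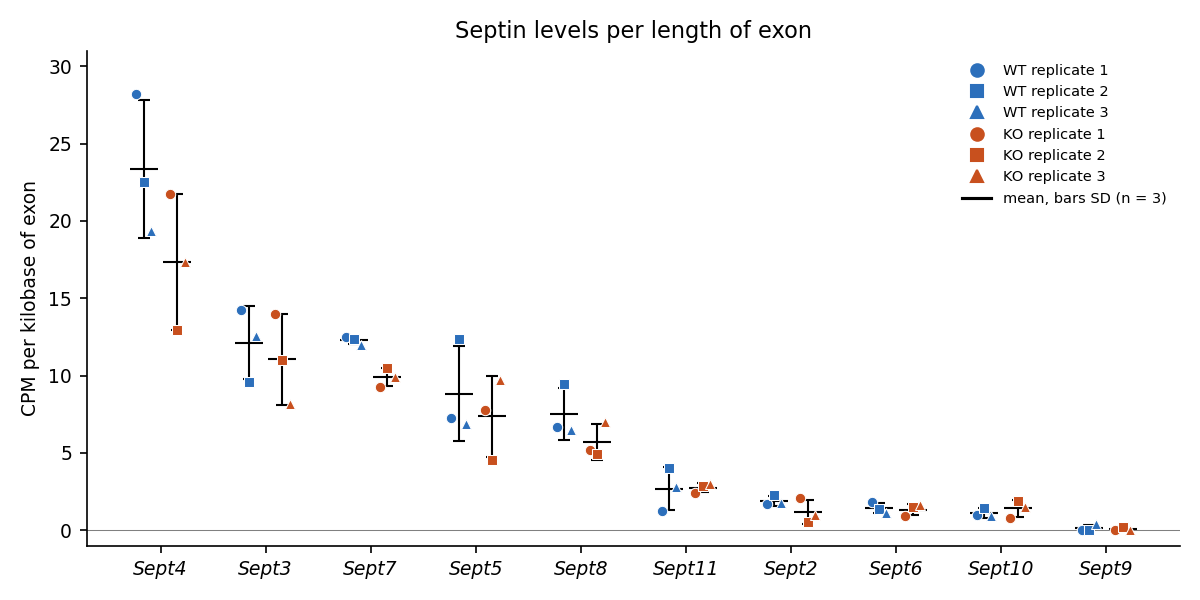
Level of each septin per length of exon. The vertical axis is CPM per kilobase of annotated exon, points are the 6 libraries (blue WT, orange KO) and black lines are means with SD bars (n = 3). Sept4 is highest, Sept3 and Sept7 follow together, and from Sept11 on every value is below 4 CPM per kilobase.

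As a share of all septin counts, Sept7 took 32.1% ± 1.41 of the WT reads and 31.5% ± 4.03 of the KO reads (SD, n = 3 each), the largest share in every library. Sept4 took 18.6% ± 2.99 in WT and 16.7% ± 3.16 in KO, and Sept3 18.1% ± 3.93 and 19.9% ± 4.72. No member's mean share differed between genotypes by more than the larger of its SDs. These shares were counted per read and not per length, so the long Sept7 transcript weighs more in them than in the order above.

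Summed over the family, septin reads made up 456, 467 and 415 CPM in WT replicates 1 to 3 and 391, 343 and 369 CPM in KO replicates 1 to 3. Each KO library lay below each WT library, as in 6.13% of all tested genes taken singly. No such share was computed for sums of 10 genes. The largest differences in mean were those of Sept7 (143 CPM in WT, 115 in KO) and Sept4 (83.2 and 61.8). The means of Sept10 and Sept11 were not lower in KO. The WT mean was 446 ± 27.2 CPM and the KO mean 368 ± 24.3 CPM (SD, n = 3 each). The sum is a description with no test, since the members were chosen with earlier results of these data known.

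No septin passed the test between genotypes. In edgeR's quasi-likelihood test over 5320 genes, 0 of the 6 tested members had a Benjamini-Hochberg adjusted p under 0.05, against a background of 0% of all tested genes, and 0 of the 6 had an unadjusted p under 0.05 (background 4.62%). DESeq2 and limma-voom also called 0 septins. Sept4 and Sept7, 2 of 6, were lower at an unadjusted p under 0.1 (background 5.83%). Their edgeR unadjusted p-values were 0.096 and 0.081, close below this cut, which is looser than the 0.05 that 0 of 6 passed. The count at 0.1 is a description and no evidence that septins as a group differ. The members were chosen with earlier results of these data known. The tested members were Sept3, Sept4, Sept5, Sept7, Sept8 and Sept11, and 4 lay below the filter on low counts. The log2 fold change of KO over WT was below 0 in 5 of 6, where 49.8% of all tested genes were, and the median was -0.28 against 0.0017 over all tested genes. That median is given as a description and is no evidence that septins as a group differ.

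**Figure D2:**
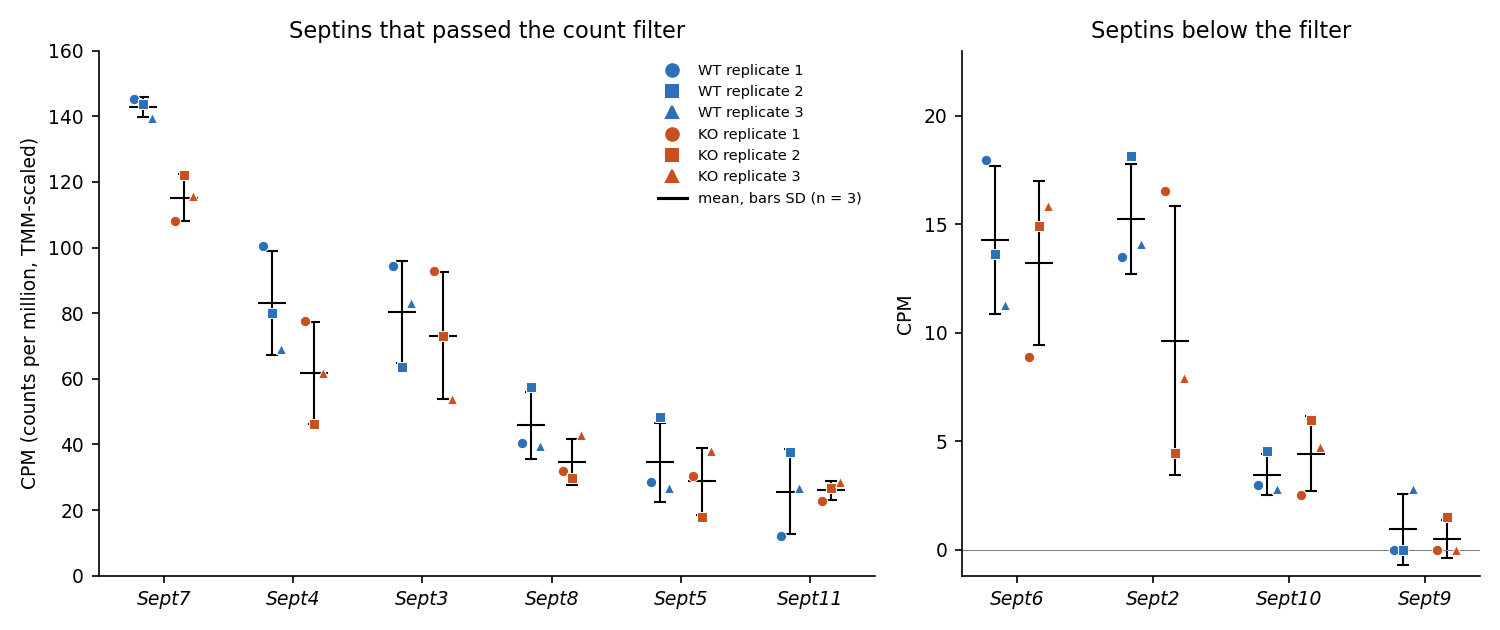
Septin CPM in each library, with the 6 members that passed the count filter on the left and the 4 below it on the right. Points are libraries (blue WT, orange KO, shapes are replicate numbers) and black lines are means with SD bars (n = 3). Sept7 is the only tested member whose genotypes do not overlap.

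Sept7, named above as a restraint on store-operated entry, was read 97, 95 and 99 times in WT libraries and 85, 82 and 73 times in KO libraries. Scaled, these were 145, 144 and 139 CPM in WT and 108, 122 and 116 CPM in KO. The highest KO value was under the lowest WT value, as in 6.13% of all tested genes. It was the 1 septin of 6 to separate that way, and 0 of 6 separated with KO above WT (background 4.61%). The WT mean was 143 ± 3.06 CPM and the KO mean 115 ± 7.11 CPM (SD, n = 3 each). The log2 fold change was -0.31 (SE 0.17, 95% interval -0.66 to 0.042), with an edgeR adjusted p of 0.987.

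In linear terms the Sept7 estimate was 0.806 of the WT level, with an interval from 0.631 to 1.03. The test found no difference, and the interval leaves room both for no difference and for a level about 0.631 of WT. The spread between Sept7 replicates, a coefficient of variation of 2.14% in WT and 6.17% in KO, was below the 10.6% that counting 88.5 reads alone would give. The closeness of the replicates is therefore no guide to its true variation, and by unadjusted p Sept7 ranked 379 of the 5320 genes. An exact two-sided permutation test on log2(CPM + 1) gave p = 0.1, the smallest that 3 against 3 allows. Without replicate 3 of both genotypes, the libraries with Y-linked counts, the log2 fold change was -0.34.

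Of the SEPT2 group, Sept4 had 100, 80.2 and 69.0 CPM in WT replicates 1 to 3 and 77.5, 46.2 and 61.7 CPM in KO. The genotypes overlapped, since KO replicate 1 lay above WT replicate 3. The log2 fold change was -0.42 (SE 0.24, 95% interval -0.91 to 0.081), with an edgeR adjusted p of 0.987. The presynaptic Sept5 had 28.5, 48.4 and 26.8 CPM in WT and 30.5, 17.9 and 38.0 CPM in KO, and WT replicate 2 and KO replicate 2 lay farthest apart. Its log2 fold change of -0.26 (SE 0.33) was 0.060 without WT replicate 2 and -0.025 without KO replicate 2.

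Sept2 was below the filter, with WT counts of 9, 12 and 10 and KO counts of 13, 3 and 5. Scaled, these were 13.5, 18.1 and 14.1 CPM for WT and 16.5, 4.47 and 7.92 CPM for KO. KO replicate 1 lay within the WT values and the other KO libraries below them. The difference in mean log2(CPM + 1), KO minus WT, was -0.76 (-1.21 to -0.37 leaving out each library), the largest of the 10 members in size, and an exact two-sided permutation test on log2(CPM + 1) gave p = 0.3.

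Of the SEPT3 group, the neuronal Sept3 had 94.4, 63.5 and 83.1 CPM in WT and 92.7, 73.0 and 53.8 CPM in KO. The genotypes overlapped almost fully. Its log2 fold change was -0.12 (SE 0.24, 95% interval -0.62 to 0.37), with an edgeR adjusted p of 0.997, and it was 0.045 without KO replicate 3. For Sept9 the WT counts were 0, 0 and 2 and the KO counts 0, 1 and 0, under the 3 counts that a library with a count of 0 allows, so no fold is given.

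Of the SEPT6 group, Sept8 had 40.5, 57.5 and 39.4 CPM in WT and 31.8, 29.8 and 42.7 CPM in KO. KO replicate 3 lay above WT replicates 1 and 3, so the genotypes overlapped. The log2 fold change was -0.40 (SE 0.27, 95% interval -0.97 to 0.17), with an edgeR adjusted p of 0.987, and -0.20 without WT replicate 2. Sept11 had 11.99, 37.8 and 26.8 CPM in WT and 22.9, 26.8 and 28.5 CPM in KO.

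For Sept11 the WT libraries spanned all of the KO values, with WT replicate 1 lowest and WT replicate 2 highest. Its log2 fold change was 0.022 (SE 0.36, 95% interval -0.73 to 0.77), -0.32 without WT replicate 1 and 0.41 without WT replicate 2, so its direction was not determined.

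The remaining SEPT6 members were too low for the model. Sept6 counts were 12, 9 and 8 (WT) against 7, 10 and 10 (KO) (exact two-sided permutation test on log2(CPM + 1), p = 0.7). Gm15008, an antisense gene that shares 308 exon bases with Sept6, had 1, 7 and 17 reads in the WT libraries and 5, 8 and 8 in the KO libraries, and its part in the Sept6 count was not tested. Sept10 counts were 2, 3 and 2 (WT) against 2, 4 and 3 (KO) (p = 0.6 in the same exact test). Neither gene's counts separated the genotypes. Sept7 also has an opposite-strand overlap, of 245 exon bases with the pseudogene Gm48272.

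**Figure D3:**
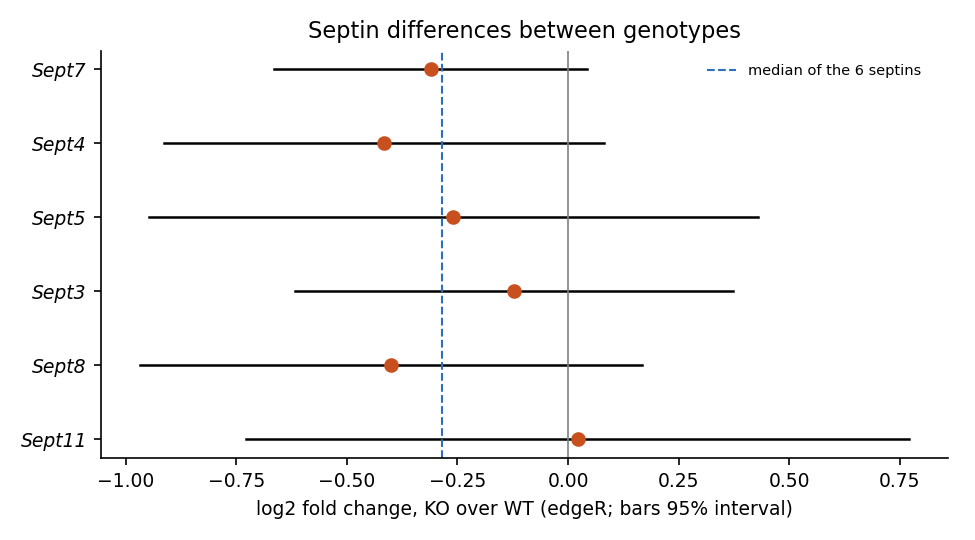
log2 fold change of KO over WT for the 6 tested septins (points, edgeR) with 95% intervals (bars). The dashed line is the median of the 6, -0.28, and every interval includes 0.

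Estimates differed in how much they rested on single libraries. Leaving out each library in turn, the Sept7 log2 fold change ran from -0.36 to -0.27, Sept4 from -0.63 to -0.25 and Sept8 from -0.57 to -0.20, all on the lower side. Sept3, Sept5 and Sept11 changed sign when 1 library was left out. The Sept4 estimate without KO replicate 1 was -0.63, over 1.5 times that of all 6 libraries, with an edgeR adjusted p of 0.947.

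**Figure D4:**
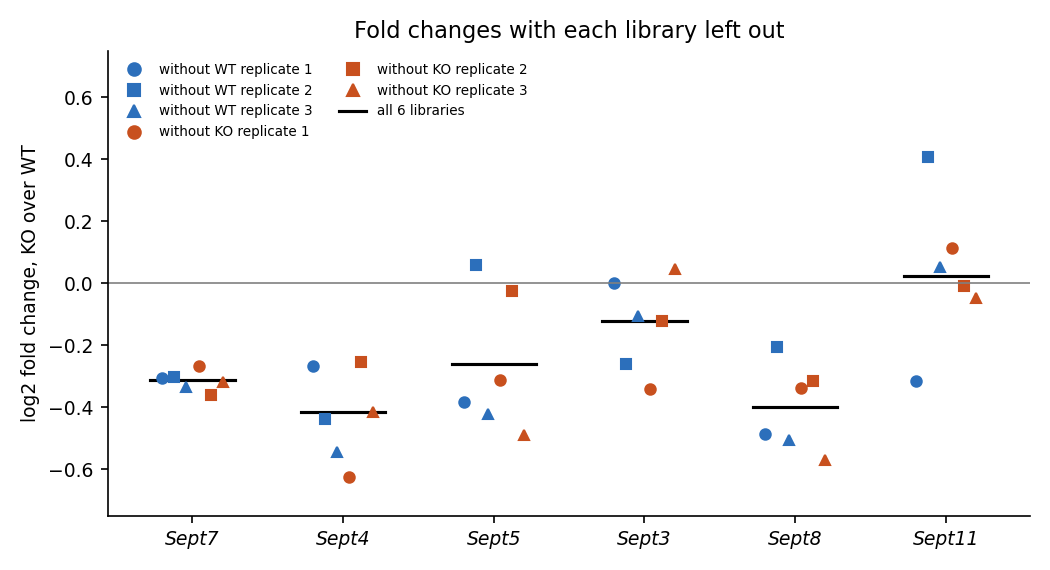
log2 fold change of KO over WT for each tested septin with 1 library left out (coloured points) beside the value from all 6 libraries (black line). Sept7 stays between -0.36 and -0.27, whereas Sept11 runs from -0.32 to 0.41.

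Genes that work with septins gave no call either. Of 15 septin partner genes in the files, 5 were tested and 0 passed. All 5 had log2 fold changes below 0, where 49.8% of all tested genes were. Their median of -0.31 is the value of Slc1a3, a gene also used below as a glial marker. Myh10, a non-muscle myosin heavy chain, had a WT mean of 58.5 ± 8.27 CPM and a KO mean of 38.8 ± 7.63 CPM (SD, n = 3 each), with a log2 fold change of -0.58 (SE 0.25) and an edgeR adjusted p of 0.987. Slc1a3, the glial glutamate transporter GLAST, averaged 369 ± 53.0 CPM (WT) and 298 ± 49.7 CPM (KO), with a log2 fold change of -0.31 (SE 0.16). Cdc42ep4, a Bergmann glial septin-binding effector of Cdc42 that links septins to this transporter, was read 17, 13 and 15 times in WT libraries and 14, 16 and 3 times in KO libraries, so KO replicate 3 alone was low. Cdc42 itself lay at -0.18 (SE 0.24).

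Of the store-operated entry genes, 20 were in the files and 8 were tested, with 0 called, 3 above 0 and 5 below, and a median log2 fold change of -0.16. Itpr1, the IP3 receptor of Purkinje cells, averaged 1733 ± 251 CPM (WT) and 1250 ± 105 CPM (KO) (SD, n = 3 each), with a log2 fold change of -0.47 (SE 0.14) and an edgeR adjusted p of 0.916. Its exons overlap an opposite-strand gene over 289 bases. Atp2a2, which encodes the SERCA2 calcium pump, lay at -0.32 (SE 0.17), and the ryanodine receptor Ryr3 at 0.29 (SE 0.34). The Sept7 estimate of -0.31 lay between those of Itpr1 and the list median. Stim1, Stim2 and the 3 Orai genes were below the filter, so the sensors and channels of store-operated entry could not be compared in the model. The separated genes of the list below the filter, chosen after their values were seen, were Orai3, with WT counts of 3, 3 and 5 and KO counts of 0, 0 and 1, and the IP3 receptor gene Itpr2, with 12, 6 and 6 (WT) and 1, 2 and 2 (KO). They were not tested, and the share of all genes below the filter that separate this way was not counted. Of the tested genes, 6.13% had every KO library below every WT library. The WT counts of Orai3 lie at or near the 3 counts that a library with a count of 0 allows.

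Marker lists of the main cell types had medians of the same sign as the septins. Purkinje cell markers had 10 of 12 tested members below 0 (49.8% of all tested genes), a median of -0.32 and a summed level of 3345 to 4035 CPM in WT and 2380 to 3300 CPM in KO. Itpr1, also in the store-operated entry list, weighed heavily in that sum. Its means were 1733 CPM in WT and 1250 in KO, within mean sums of 3655 and 2844. Bergmann glia and astrocyte markers had 8 of 11 tested members below 0, a median of -0.31 and summed levels of 1545 to 1743 CPM in WT and 1071 to 1620 CPM in KO. That median is again the value of Slc1a3, which is also in the septin partner list, so the 2 medians are not separate results. Oligodendrocyte markers had 3 of 4 tested members below 0 and a median of -0.060. For granule cell markers these were 4 of 7 and -0.13, and for interneuron markers 5 of 5 and -0.11. Their mean sums were 153 CPM in WT and 143 in KO for oligodendrocytes and 284 and 258 for interneurons. For granule cells the mean sum was not lower in KO, at 236 CPM in WT and 242 in KO. 0 markers were called in any list, none was at 0 in all libraries, and their part in the septin values was not tested.

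Likeness to the Sept7 profile over the 6 libraries was measured as the root mean square distance between log2 CPM profiles, each centred on its own mean, among 2949 genes with a mean count of at least 20, predicted genes left out. The closest were Dek, a chromatin protein, at 0.069, Setd7, a lysine methyltransferase, at 0.072, Scn8a, a sodium channel, at 0.074, Rrp7a at 0.078 and Emc9, an endoplasmic reticulum membrane complex subunit, at 0.081. Of the septins counted well enough, Sept8 was nearest at 0.23, ranked 920 among these genes, and Sept4 lay at 0.30, Sept3 at 0.31 and Sept5 at 0.41, where the median gene lay at 0.27. No test goes with these distances, and among so many genes some must lie close. Counting error alone is a coefficient of variation of 19.1% for Sept8 and 21.5% for Sept5, beside 10.6% for Sept7, so the distances do not show whether the paralogues follow Sept7.

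The authors' deposited tables show the septins as calendar dates, such as 07-Sep for Sept7, and each was matched here by its number and its row. In the authors' deposited DESeq table the KO to WT ratio of Sept7 was 0.825 (p = 0.19), and that of Sept4, the member with the lowest p, was 0.758 (p = 0.139). In the authors' deposited edgeR table the lowest unadjusted p of a septin was 0.105, again for Sept4. By the authors' deposited DESeq fold, 8 of 10 members were below 1, where 48.8% of all genes with counts were. The 8 include Sept9, whose counts of 0, 0 and 2 (WT) and 0, 1 and 0 (KO) are too few for a fold. That number is a description, since the members were chosen with earlier results of these data known. By the p-values in the authors' deposited tables, 0 of 10 members had an unadjusted p under 0.05, against 1.86% of all genes by DESeq and 2.81% by edgeR.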

How the data were processed

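Counts per gene symbol were deposited for each library; per the submitters' processing notes, the authors used TopHat, HTSeq 0.9.1, DESeq and edgeR with GRCm38 (mm10). The labels' protocols name TRIzol RNA and a TruSeq mRNA kit. Annotation and strand setting: not given in the sources used here. Rows of HTSeq that name no gene (98.8% of uniquely aligned reads on average without a gene) were left out. Per the file headers, the authors' deposited tables give DESeq-normalised signal (mean counts), a ratio (fold change, KO over WT), log2 fold changes (WT over KO) and unadjusted p-values.

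The genotypes were compared by edgeR 4.0.16 under R 4.3.3 (TMM factors 0.958 to 1.03, filterByExpr with a minimum count of 10, glmQLFit and glmQLFTest, Benjamini-Hochberg adjusted p under 0.05) on all 24421 genes, of which 5320 were tested. Standard errors are the log2 fold change over the root of F. Members below the filter were tested by exact permutation of log2(CPM + 1). The titles number 3 replicates per genotype; the series text calls them biological. Where replicates came from is known only from that text. The edgeR p-values rest on the spread between these samples, moderated over all tested genes, and not on each gene's own spread alone. Sequence comparisons, read windows and Sept5 unshared bases were chosen after the data were seen. Library pairs differed by at least 2.30 in chi-square per degree of freedom and were kept separate. GENCODE M21 (GRCm38) matched 23376 symbols.

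The members, gene lists and alternatives were chosen with earlier results of these data known. The text names all 10 members, the 4 tested genes of lowest p in each list (1 of them is not reported here), genes opposite a septin, Stim1 and the 5 genes closest to Sept7. On simulated counts of the 5320 tested genes with 200 changed (KO against WT, 5 simulations), 56.6% of 2-fold and 98% of 4-fold changes were recovered. Each simulation also held 5 to 15 false calls. Changes under 2-fold, such as the septin estimates, were not simulated, so these shares do not apply to them. Alternatives were DESeq2 1.42.0, limma-voom (limma 3.58.1), other scalings and filters, a replicate block and leaving out libraries.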

Additional observations from a re-analysis of the deposited data

Results flagged for a closer look

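On average 98.8% of uniquely aligned reads were assigned to no gene, a signal outside the gene counts used here. What these reads are was not analysed here.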

How the results depend on the processing

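The count of called septins was 0 under all 15 alternatives. The estimates of Sept4, Sept7 and Sept8 stayed below 0 under each alternative that gave them a value; Sept7 has none among genes without an opposite-strand overlap. With all uniquely aligned reads as library size its unadjusted p was 0.048 and its adjusted p 0.999. The unadjusted p of Sept4 was 0.030 without KO replicate 1 and 0.049 without WT replicate 3. The median of the tested septins, -0.28, ran from -0.38 to -0.19 leaving out each library and was -0.44 without both libraries with reads of Y-linked genes. Signs changed as follows; the cause was not tested. Leaving out each library, Sept3 ran from -0.34 to 0.045, Sept5 from -0.49 to 0.060, Sept11 from -0.32 to 0.41, and the log2(CPM + 1) differences of Sept6 and Sept9 from -0.27 to 0.12 and from -0.64 to 0.44. Sept3 was 0.045 without KO replicate 3 and 0.068 without both Y-linked libraries. Sept5 was 0.060 without WT replicate 2. Sept11 was -0.027 with all uniquely aligned reads, -0.0096 without KO replicate 2, -0.048 without KO replicate 3, -0.32 without WT replicate 1 and -0.013 without both Y-linked libraries. Among septins below the filter, with libraries left out after the data were seen, the log2(CPM + 1) difference of Sept6 was 0.047 without WT replicate 1 and 0.12 without KO replicate 1, and that of Sept9 was 0.44 without WT replicate 3 and 0.014 without KO replicate 1 or 3. Over all genes the number called was 6 with no filter, 1 without both Y-linked libraries and 0 to 1 leaving out each library. Of genes at an unadjusted p under 0.05, 84 of 246 were higher in KO, 42 of 238 with all uniquely aligned reads as library size, 273 of 638 with no filter and 36 of 96 with DESeq2. The replicate block called 0 septins and gave Sept7 -0.31 and Sept4 -0.43. Same-numbered libraries deviated together at correlations of 0.143, 0.0795 and 0.122, each above 0. Because the labels name no pairing, the main edgeR test carried no term for replicate number. With the replicate block, 287 genes had an unadjusted p under 0.05, against 246 in the main test. The lowest unadjusted p of a septin was 0.059 with the block and 0.081 in the main test. Whether same-numbered libraries share an origin was not tested. At means of 21.7 and 17.7 counts per library, Sept5 and Sept11 had standard errors of 0.33 and 0.36, which limits the differences that could be seen.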
